A study of Mus musculus with 9 samples.

Results

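Libraries of mouse duodenum whose title ends in number 3 were set against those whose title ends in number 2, whatever treatment the title gives. The comparison holds 6 of the 9 libraries, 3 for each number, and 15002 of the 48709 genes of the deposited table, those with more than 100 reads over all 9 libraries. The columns of that table are headed by the digits 1 to 9, by which the libraries are called here. Number 2 is libraries 4, 5 and 6 and number 3 is libraries 7, 8 and 9, and within each number the titles name vehicle first, then 1,25D3 alone, then the co-treatment of 1,25D3 with ZK. Library 8 is given apart from libraries 7 and 9. The numbers were selected on transcript levels of these same libraries, among them those of *Cyp24a1*, *Trpv6*, *Tff2*, *Reg3b* and *Olfm4*, so the differences below are a description of 6 libraries and no test of them is drawn on.

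All 9 libraries come from 10-week-old male C57BL/6J mice, 3 per treatment label, taken 6 h after an oral dose in sunflower oil. The agents were vehicle, 1,25D3, which is the active form of vitamin D, or 1,25D3 with ZK (ZK168281), an analog of it that antagonizes the vitamin D receptor VDR. The doses given to these mice are not stated in the sources used here, nor is what the number in a title stands for. Each number holds 1 library of every treatment label, so a contrast of numbers as labelled compares no treatments. The treatment labels are nevertheless in doubt, because the vitamin D target *Cyp24a1* followed the number and not the label, and whether the number marks a treatment, an animal, a dissection or a sequencing run cannot be told apart from the labels.

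The duodenum is the first stretch of small intestine after the stomach, and it lies against the pancreas. Its absorptive cells take up calcium under control of 1,25D3. VDR, paired with RXR, binds 1,25D3 and raises transcription of the luminal calcium channel *Trpv6*, of the calcium-binding protein calbindin-D9k, encoded by *S100g*, of the basal calcium pump *Atp2b1* and of *Cyp24a1*, whose enzyme breaks 1,25D3 down. Brunner glands beneath the first part of the duodenal epithelium, and the stomach next to it, secrete mucins, trefoil factors and gastrokines. Levels are given as reads scaled to library size by the TMM method (TMM CPM), which serve to compare libraries for 1 gene and not 1 gene with another. In RNA of whole tissue, fewer cells of a type and less RNA per cell cannot be told apart.

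Enterocyte transcripts were high in all 6 libraries. *Vil1*, which encodes a brush border protein, was at 1619, 2084 and 1600.1 TMM CPM in libraries 4, 5 and 6, at 1786 and 1703 in libraries 7 and 9, and at 2259 in library 8. The fatty acid binding protein transcript *Fabp2* was at 4112, 4446 and 4304 TMM CPM in number 2, 3655 and 3726 in libraries 7 and 9, and 5243 in library 8. *Gata4*, a factor of proximal small intestine, was at 177, 166 and 181 TMM CPM in number 2, 129 and 131 in libraries 7 and 9, and 141 in library 8. *Pdx1*, which marks proximal duodenum and pancreas, was at 166, 135 and 174 TMM CPM in libraries 4, 5 and 6, at 64.7 and 77.5 in libraries 7 and 9, and at 59.8 in library 8. Thus enterocyte and proximal intestine transcripts were present throughout, and *Gata4* and *Pdx1* were higher in each number 2 library than in each number 3 library. The Brunner gland genes *Tff2* and *Muc6*, also meant as a check of the tissue, differed in the same direction. They were far lower in number 3, most so in library 8, and are given below. Total counts ran from 22561400 in library 8 to 41207455 in library 6.

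The libraries of 1 number were not equally close to each other. Over 8000 genes with a mean of at least 10 TMM CPM, the root mean square log2 difference was 0.12 between libraries 7 and 9, 0.10 between libraries 4 and 6, and 0.28 and 0.29 between library 5 and these last. Library 8 lay 0.64 and 0.61 from libraries 7 and 9, and 0.13, 0.11 and 0.14 from libraries 1, 2 and 3, the number 1 libraries. Between number 2 and libraries 7 and 9 the distance was 0.56 to 0.68, and between number 2 and library 8 it was 0.81 to 0.92. Library 8 therefore stood closer to the libraries numbered 1 than to those that share its own number, and the 3 libraries of number 3 are not treated as alike below. By the mean over genes, no pair agreed within counting noise alone. That does not show whether close libraries come from separate mice, which was not tested. Each library was counted as a sample by its title, so an SD with n = 3 takes close libraries as separate.

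Promoters are shown for genes that carry the pattern: *Mt1* and *Mt2*, which were higher in all 3 libraries of number 3, and *Hmgcs1*, *Trpv6* and *S100g*, which were lower. The sequences are those of RefSeq on GRCm38.p6, 250 bases before to 50 after the start, written 5′ to 3′ on the strand of the gene. Capitals mark, in *Mt1* and *Mt2*, the core of the metal response element (TGCGCNC or TGCACNC), in *Hmgcs1* a sterol response element (TCACNCCAC), and in *Trpv6* and *S100g* the half-site AGGTCA of nuclear receptors, each searched on both strands.
*Mt1*, chr8:94178839-94179138, plus strand: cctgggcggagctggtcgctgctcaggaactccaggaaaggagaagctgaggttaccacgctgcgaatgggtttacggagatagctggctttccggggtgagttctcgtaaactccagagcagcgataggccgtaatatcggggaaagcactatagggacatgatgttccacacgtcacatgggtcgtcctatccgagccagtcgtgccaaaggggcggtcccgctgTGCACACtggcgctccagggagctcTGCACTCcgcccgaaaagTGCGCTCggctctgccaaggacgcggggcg
*Mt2*, chr8:94172368-94172667, plus strand: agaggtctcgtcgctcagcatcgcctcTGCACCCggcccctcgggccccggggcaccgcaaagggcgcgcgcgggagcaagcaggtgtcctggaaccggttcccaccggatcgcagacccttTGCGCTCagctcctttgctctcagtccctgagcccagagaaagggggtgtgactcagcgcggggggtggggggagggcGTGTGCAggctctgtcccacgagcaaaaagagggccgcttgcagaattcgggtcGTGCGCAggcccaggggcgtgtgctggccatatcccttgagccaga
*Hmgcs1*, chr13:119690101-119690400, plus strand: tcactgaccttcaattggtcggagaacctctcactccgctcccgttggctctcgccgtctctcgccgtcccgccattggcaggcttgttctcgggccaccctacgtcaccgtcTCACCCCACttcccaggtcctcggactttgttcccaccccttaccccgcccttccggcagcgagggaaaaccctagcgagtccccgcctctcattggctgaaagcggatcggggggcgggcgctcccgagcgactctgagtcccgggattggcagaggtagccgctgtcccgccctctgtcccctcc
*Trpv6*, chr6:41636356-41636655, minus strand: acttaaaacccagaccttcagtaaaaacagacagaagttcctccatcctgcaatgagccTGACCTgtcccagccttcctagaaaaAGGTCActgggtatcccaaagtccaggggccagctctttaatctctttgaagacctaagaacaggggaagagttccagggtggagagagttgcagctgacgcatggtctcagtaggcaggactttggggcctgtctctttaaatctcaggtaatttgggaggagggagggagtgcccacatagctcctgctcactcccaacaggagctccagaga
*S100g*, chrX:162964550-162964849, minus strand: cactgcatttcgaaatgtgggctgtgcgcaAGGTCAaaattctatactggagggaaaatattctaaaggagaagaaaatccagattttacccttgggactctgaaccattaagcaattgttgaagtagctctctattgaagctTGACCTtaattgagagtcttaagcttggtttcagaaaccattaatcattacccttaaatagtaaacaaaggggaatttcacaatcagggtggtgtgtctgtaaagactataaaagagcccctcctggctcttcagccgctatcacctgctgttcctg

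The metal response core had 3 matches in *Mt1* and 4 in *Mt2*, and at least 1 in 25.7% of 32851 promoters of this length. The sterol element had 1 match in *Hmgcs1* and was found in 1.24% of promoters. Of 20 cholesterol genes with a promoter in the table, *Hmgcs1* alone held it. The half-site had 2 matches each in *Trpv6* and *S100g* and occurs in 16.26% of promoters. Of the 6 VDR target genes that have an entry, these 2 held it. These matches are descriptions of letters and not of binding.

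Over the whole table, 680 genes (4.53%) were called higher in number 3 and 1022 (6.81%) lower by edgeR's quasi-likelihood test, where a call needed a log2 fold change beyond 0.58 and a p of less than 0.05 after Benjamini-Hochberg adjustment. The fold is a change of 1.5-fold. All 3 libraries of number 3 were above all 3 of number 2 for 2698 genes (18.0%) and below them for 2825 (18.8%). The mean of libraries 7 and 9 was past 1.5-fold above number 2 for 1175 genes (7.83%) and below it for 1530 (10.2%). Library 8 was past it above for 1691 (11.3%) and below for 2505 (16.7%). Both were past it in the same direction for 510 higher genes (3.40%) and 932 lower genes (6.21%), and in opposite directions for 189 (1.26%). The median log2 fold change over all genes was 0.012. Since the same contrast chose the numbers, nothing is read from these shares except as the setting for the counts of single gene groups. Without library 8, 4812 genes were above and 4838 below, and 971 were called higher and 1357 lower. Close libraries of the same number were also summed (1 with 3, 4 with 6, 7 with 9), while libraries 2, 5 and 8 stayed single. Libraries 2 and 8 were thus kept as separate samples though only 0.11 apart in root mean square log2 difference. That fit, with fewer samples, left 245 genes called higher (1.63%) and 507 lower (3.38%). Of these, 241 and 504 were among the calls of the 9 libraries taken singly. Counts of the summed fit stand beside those of each gene group. For some groups its edgeR counts at an unadjusted p under 0.05 are also given. No share over all genes is given at that cutoff, so these counts are not read as support.

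**Figure D1:**
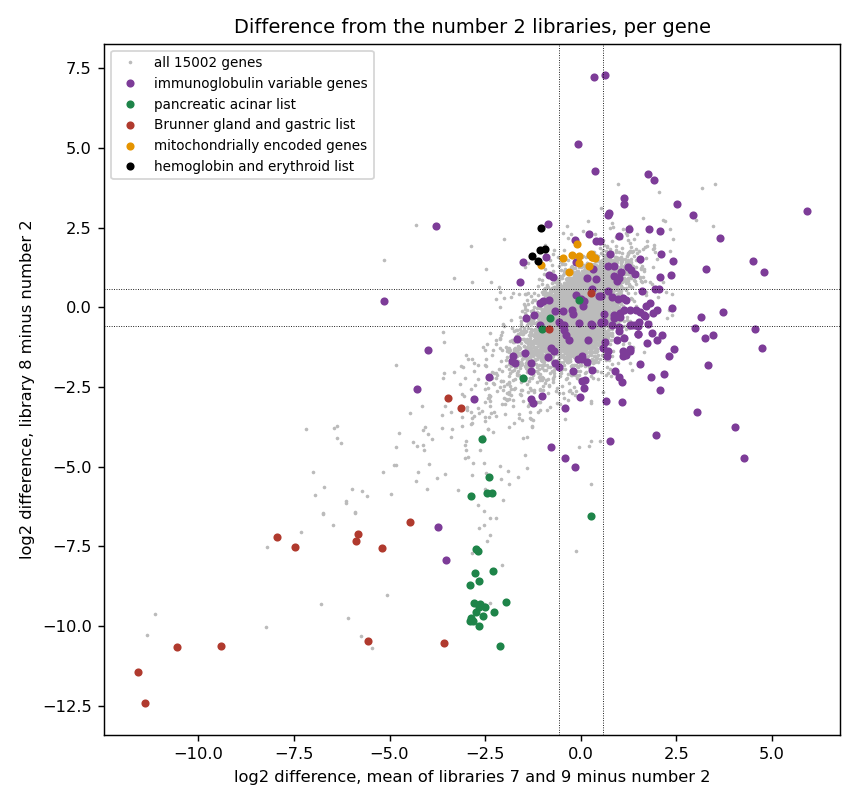
Each point is 1 of 15002 genes, with the log2 difference from number 2 of the mean of libraries 7 and 9 on the x axis and of library 8 on the y axis, and dotted lines at 0.58 on either side of 0. Gastric genes lie low on both axes, acinar genes lie much lower for library 8, mitochondrially encoded genes lie higher for library 8 than for libraries 7 and 9, and the 5 erythroid genes fall on opposite sides.

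The 7 VDR targets were all lower in each number 3 library than in each number 2 library, and 6 of 7 were called lower, while *Atp2b1* did not pass the fold. With close libraries summed 5 were called, as *S100g* lost its call. *Cyp24a1* and *Trpv6* were among the genes on which the numbers were selected, so their part in these counts was set beforehand. *Cyp24a1* (GRCm38 chromosome 2 from 170482708 to 170497145) was at 7537, 6425 and 7633 TMM CPM in libraries 4, 5 and 6, at 2.47 and 4.05 in libraries 7 and 9, and at 9.13 in library 8. Its mean was 7198 ± 671 TMM CPM in number 2 and 5.22 ± 3.48 in number 3 (SD, n = 3 each), a log2 fold change of -10.47. *Trpv6* (log2 fold change -8.52) was at 314, 245 and 299 TMM CPM in libraries 4, 5 and 6, at 1.06 and 0.815 in libraries 7 and 9, and at 0.244 in library 8. The channel transcript was thus low in all of number 3, with 42 and 37 reads in libraries 7 and 9 and only 5 in library 8.

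Calbindin and the transporters kept a substantial level in number 3, and for these library 8 was lower than libraries 7 and 9. *S100g* was at 2822, 2142 and 2785 TMM CPM in libraries 4, 5 and 6, at 807 and 862 in libraries 7 and 9, and at 230.1 in library 8. *Slc37a2*, a sugar-phosphate transporter, was at 762, 637 and 729 TMM CPM in libraries 4, 5 and 6, at 202 and 195 in libraries 7 and 9, and at 118 in library 8. *Slc30a10*, a manganese exporter, was at 394, 329.5 and 392 TMM CPM in libraries 4, 5 and 6, at 135 and 137 in libraries 7 and 9, and at 76.1 in library 8. In these 3 genes library 8 lay within or near the range of the number 1 libraries, which was 213 to 229 for *S100g*, 121 to 127 for *Slc37a2* and 70.8 to 76.4 for *Slc30a10*. *Atp2b1* was split more sharply, at 751, 714 and 732 TMM CPM in libraries 4, 5 and 6, at 610.1 and 597 in libraries 7 and 9, and at 287 in library 8, so that libraries 7 and 9 stood closer to number 2 than to library 8. *Nkain1*, which encodes a protein that interacts with the sodium pump, did not separate library 8 and was at 9.72, 7.45 and 9.03 TMM CPM in number 2, 2.14 and 2.31 in libraries 7 and 9, and 2.39 in library 8. The median log2 difference of the 7 targets was -1.83 for libraries 7 and 9 and -2.58 for library 8.

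The receptor ran the other way. *Vdr* was at 399.8, 436 and 402 TMM CPM in libraries 4, 5 and 6, at 663 and 663 in libraries 7 and 9, and at 498 in library 8, above number 2 in each, with a log2 fold change of 0.56 that did not pass the fold. Without library 8 (0.685) or without library 5 (0.602) *Vdr* gained the call. *Rxra*, its partner, was called higher (0.66) and was at 115, 129 and 113 TMM CPM in libraries 4, 5 and 6, at 174 and 170.1 in libraries 7 and 9, and at 219.7 in library 8, but its call was lost without library 8 (0.53) and with close libraries summed (0.69). *Wbp4*, which encodes a component of the spliceosome, overlapped between the numbers at 15.5, 16.4 and 19.4 TMM CPM in number 2, 15.7 and 15.5 in libraries 7 and 9, and 13.4 in library 8. Among 14 genes of vitamin D signalling tested, 2 were called higher (4.53% of all genes), and 5 were above number 2 in each library of number 3 (18.0% of all genes). By edgeR with close libraries summed 0 were called, and 3 were higher at an unadjusted p under 0.05. The latter count has no share of all genes beside it and is not read as support.

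Among the claudins listed, which seal or conduct between cells, every call was in the lower direction. *Cldn2*, a claudin that forms a cation pore (chromosome X from 139800828 to 139811386), was at 566, 456 and 546 TMM CPM in libraries 4, 5 and 6, at 104 and 97.5 in libraries 7 and 9, and at 76.2 in library 8. *Cldn4*, a sealing claudin, was at 217, 184 and 206 TMM CPM in libraries 4, 5 and 6, at 82.1 and 80.7 in libraries 7 and 9, and at 48.2 in library 8. *Cldn15*, which also conducts cations, was higher in number 3, at 414, 454 and 397 TMM CPM in number 2, 561 and 537 in libraries 7 and 9, and 787 in library 8, without being called. *Cnnm4*, a magnesium transporter, was called higher, at 41.2, 52.2 and 42.3 TMM CPM in number 2, 75.9 and 73.4 in libraries 7 and 9, and 91.5 in library 8. Of 13 tight junction genes tested, 0 were called higher and 1 lower, and with close libraries summed also 0 and 1. In the list of calcium and magnesium transport 1 of the 13 genes tested was called higher and 4 lower, and with close libraries summed 1 and 3. The tight junction counts are near the shares of all genes, 4.53% called higher and 6.81% lower.

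**Figure D2:**
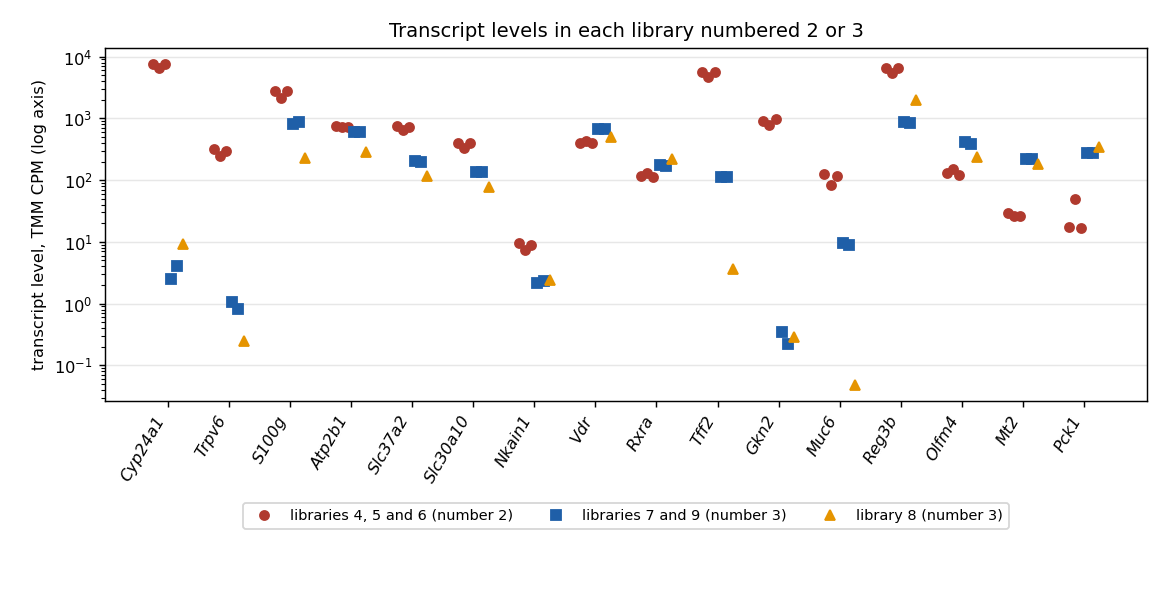
Transcript levels in TMM CPM on a log axis, for 16 genes named in the text, with 1 point per library (circles, number 2; squares, libraries 7 and 9; triangles, library 8). *Cyp24a1* lies between 6425 and 7633 in number 2 and between 2.47 and 9.13 in number 3, and *Tff2* and *Muc6* part library 8 from libraries 7 and 9.

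Genes of stomach lining and Brunner glands made up the most extreme differences. Of 16 tested, 15 were called lower in number 3, among them *Tff2*, on which the numbers were selected, and the median log2 fold change was -6.08. With close libraries summed 13 were called, *Tff2* and *Muc6* no longer among them. The exception was *Dmbt1*, a mucosal scavenger protein that the intestine also makes, at 2642, 2156 and 2500.3 TMM CPM in number 2, 3005 and 2805 in libraries 7 and 9, and 3317 in library 8. Without *Dmbt1* the summed level was 10068, 8197 and 9979 TMM CPM in libraries 4, 5 and 6, 228 and 218 in libraries 7 and 9, and 78.8 in library 8. The gastrokines *Gkn1* and *Gkn2* and pit-cell markers were almost confined to number 2. *Gkn2* was at 919, 793 and 970.3 TMM CPM in libraries 4, 5 and 6, at 0.352 and 0.22 in libraries 7 and 9, and at 0.293 in library 8. *Gkn1* was at 734, 577 and 723 TMM CPM in number 2, 0.428 and 0.132 in libraries 7 and 9, and 0.0976 in library 8, and *Tff1*, a trefoil factor of gastric pit cells, at 765, 619.8 and 838 TMM CPM in number 2, 0.806 and 1.41 in libraries 7 and 9, and 0.439 in library 8. *Muc5ac*, the mucin of the gastric surface, was at 41.7, 36.3 and 40.2 TMM CPM in number 2, 0.0503 and 0 in libraries 7 and 9, and 0 in library 8. *Psca*, a surface antigen expressed in stomach, was at 44.7, 33.5 and 43.3 TMM CPM in number 2, 0.176 and 0.264 in libraries 7 and 9, and 0.195 in library 8. *Psapl1*, which encodes a prosaposin-like protein, had no read in any of libraries 7, 8 and 9 and 33, 25.6 and 33.6 TMM CPM in libraries 4, 5 and 6. That is at least 210.0-fold lower in number 3, taking 3 reads per library as the floor.

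Gland-type mucus genes parted from pit-cell genes, with a low level in libraries 7 and 9 that was lower still in library 8. *Tff2* (chromosome 17 from 31141049 to 31144282), a trefoil factor of Brunner glands and mucous neck cells, was at 5701, 4647 and 5556 TMM CPM in libraries 4, 5 and 6, at 112 and 111 in libraries 7 and 9, and at 3.66 in library 8. *Muc6*, the gland mucin (chromosome 7 from 141633456 to 141655319), was at 125, 84.2 and 119 TMM CPM in libraries 4, 5 and 6, at 9.49 and 8.74 in libraries 7 and 9, and at 0.0488 in library 8, the last being 1 read. *Gkn3* was at 1462, 1167 and 1420.3 TMM CPM in number 2, 38.2 and 35.1 in libraries 7 and 9, and 7.18 in library 8. *A4gnt*, which adds the sugar cap of gland mucin, was at 25.6, 20.5 and 24.6 TMM CPM in number 2, 0.957 and 1.15 in libraries 7 and 9, and 0.195 in library 8. By contrast *Gcnt3*, a mucin glycosyltransferase of gut epithelium, differed less, at 97.5, 96.3 and 97.7 TMM CPM in number 2, 57.5 and 52.7 in libraries 7 and 9, and 60.4 in library 8.

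Pancreatic transcripts differed in the same direction but with more spread. Of 29 acinar genes tested, 19 were called lower and 27 were below number 2 in each number 3 library, with a median log2 difference of -2.58 in libraries 7 and 9 and -8.60 in library 8. By edgeR with close libraries summed 0 were called lower, and 14 were lower at an unadjusted p under 0.05. No share of all genes stands beside that 14, so it is not read as support. *Reg1* and *Zg16*, which the intestine itself makes, held most of what was left in number 3. Without both, the summed level was 51834, 11215 and 49773 TMM CPM in libraries 4, 5 and 6, 5003 and 4936 in libraries 7 and 9, and 579 in library 8. *Ctrb1*, a digestive protease, was at 11016, 1788 and 10986 TMM CPM in libraries 4, 5 and 6, at 816 and 795 in libraries 7 and 9, and at 6.44 in library 8, and *Pnlip*, pancreatic lipase, at 4698, 1065 and 4448 TMM CPM in number 2, 494 and 493 in libraries 7 and 9, and 4.1 in library 8. Neither was called, and in both library 5 lay well below libraries 4 and 6 and library 8 well below libraries 7 and 9. Within number 2 the acinar sum of library 5 was the outlying value, yet *Cyp24a1*, *Trpv6* and the gastric genes of library 5 stayed near those of libraries 4 and 6. With the acinar genes left out of the table before normalization, 695 genes were called higher and 995 lower. Whether the content of neighbouring organs in the tissue piece has a part in other differences was not tested.

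Hormone genes of the islet were also lower in number 3. *Ins2* was at 123, 77.5 and 119.6 TMM CPM in libraries 4, 5 and 6, at 1.54 and 1.5 in libraries 7 and 9, and at 0.0976 in library 8, and *Ins1* at 51.6, 36.8 and 52.7 TMM CPM in number 2, 0.378 and 0.44 in libraries 7 and 9, and 0.0488 in library 8. *Iapp*, islet amyloid polypeptide, was at 11.1, 7.88 and 11.3 TMM CPM in number 2, 1.56 and 1.37 in libraries 7 and 9, and 1.81 in library 8. *Gcg*, which enteroendocrine cells also express, was at 9.85, 8.85 and 10.4 TMM CPM in number 2, 7.4 and 8.04 in libraries 7 and 9, and 16.8 in library 8, and overlapped. B-cell genes were lower as well, with 10 of 11 called, and 8 with close libraries summed. *Ms4a1*, which encodes the surface antigen CD20, was at 4.14, 10.7 and 5.4 TMM CPM in libraries 4, 5 and 6, at 0.0755 and 0.33 in libraries 7 and 9, and at 0.146 in library 8. *Cd79b*, of the antigen receptor complex, was at 24.4, 25.8 and 23.4 TMM CPM in number 2, 10.4 and 11.2 in libraries 7 and 9, and 8.88 in library 8, while its partner *Cd79a*, also present in plasma cells, overlapped between the numbers at 24.9, 37.9 and 24.8 TMM CPM in number 2, 27.9 and 26.8 in libraries 7 and 9, and 21.5 in library 8. Without those 2 genes the B-cell sum was 19.8, 46.3 and 20.2 TMM CPM in libraries 4, 5 and 6, 3.9 and 4.29 in libraries 7 and 9, and 2.29 in library 8, highest in library 5.

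**Figure D3:**
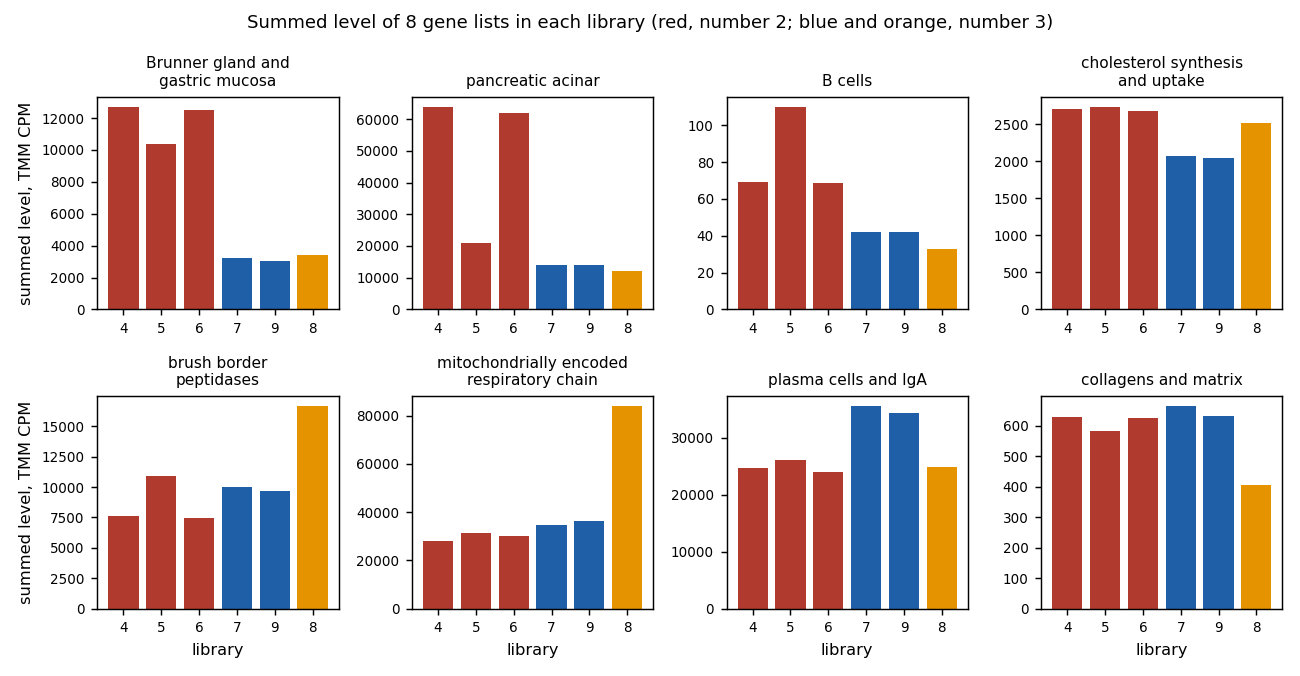
Summed level of 8 gene lists in TMM CPM, 1 bar per library and axes from 0, with number 2 in red, libraries 7 and 9 in blue and library 8 in orange. The gastric sum falls from 10353 to 12709.9 in number 2 to 3022 to 3396 in number 3, of which *Dmbt1* makes up most in number 3 (without it 8197 to 10068 against 78.8 to 228), and the mitochondrially encoded sum is 83997 in library 8.

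Antimicrobial lectins of the Reg family did not move as a block. *Reg3b* (chromosome 6 from 78370657 to 78373466), which acts on gut bacteria, was at 6484, 5532 and 6539 TMM CPM in libraries 4, 5 and 6, at 863 and 857 in libraries 7 and 9, and at 2017 in library 8, with a log2 fold change of -2.31. *Reg3g*, its close relative, was at 1999, 1869 and 2090.0 TMM CPM in number 2, 592 and 587 in libraries 7 and 9, and 928 in library 8. For both, library 8 was in between and libraries 7 and 9 were lowest. *Reg3a* was above number 2 in library 8 and below it in libraries 7 and 9, at 69.4, 72.8 and 63.6 TMM CPM in number 2, 44.3 and 43.7 in libraries 7 and 9, and 128 in library 8. *Reg2* and *Reg3d*, which the pancreas expresses, followed the acinar genes, with *Reg2* at 158, 59.2 and 158 TMM CPM in number 2, 27.4 and 27.1 in libraries 7 and 9, and 0.391 in library 8, and *Reg3d* at 21.4, 5.36 and 20.4 TMM CPM in number 2, 2.14 and 2.36 in libraries 7 and 9, and 0.781 in library 8. *Reg4*, of enteroendocrine and goblet cells, was at 125, 117 and 123 TMM CPM in number 2, 145 and 147 in libraries 7 and 9, and 147 in library 8. In all, 4 of 7 were called lower, and 2 with close libraries summed, where *Reg2* and *Reg3d* lost the call. Both counts hold *Reg3b*, on which the numbers were selected.

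Among crypt genes, *Olfm4* (chromosome 14 from 79984081 to 80023139), a marker of intestinal stem cells, was at 132, 149 and 123 TMM CPM in libraries 4, 5 and 6, at 412 and 389.7 in libraries 7 and 9, and at 237 in library 8. It was higher in number 3, more so in libraries 7 and 9, and its log2 fold change was 1.36. *Hopx*, of reserve stem cells and other epithelium, was lower, at 185, 149 and 194 TMM CPM in number 2, 58.2 and 62.4 in libraries 7 and 9, and 66.1 in library 8. *Rnf43*, a Wnt feedback gene, parted library 8 from the others at 49.3, 40.4 and 48.5 TMM CPM in number 2, 46.5 and 45.7 in libraries 7 and 9, and 25 in library 8. Over 22 crypt and Wnt genes 4 were called higher and 2 lower, and with close libraries summed 2 and 1. The higher counts hold *Olfm4*, on which the numbers were selected, and of all genes 4.53% were called higher and 6.81% lower. Cell cycle genes were mostly a little higher. Of 29, 17 were above number 2 in each number 3 library but only 2 were called, with a median of 0.34, and 1 with close libraries summed. For all genes the shares were 18.0% above in this way and 4.53% called higher. *Mki67*, present in dividing cells, was at 45.8, 44.8 and 42.7 TMM CPM in number 2, 69 and 68.2 in libraries 7 and 9, and 35.1 in library 8, so that only libraries 7 and 9 were higher. *Ccna2*, a cyclin, was higher in all 3, at 31.6, 33 and 31 TMM CPM in number 2, 45.5 and 46.7 in libraries 7 and 9, and 43 in library 8.

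Metallothioneins, small proteins that bind zinc and copper, were higher in number 3 with little separation of library 8. *Mt2* (chromosome 8 from 94172664 to 94173568) was at 29.4, 26.1 and 26 TMM CPM in libraries 4, 5 and 6, at 219 and 219.8 in libraries 7 and 9, and at 182 in library 8, a log2 fold change of 2.93 with a standard error of 0.10. That error takes close libraries as separate samples and is no measure of the spread between mice. *Mt1*, its neighbour (chromosome 8 from 94179082 to 94180327), was at 180.1, 139 and 185 TMM CPM in libraries 4, 5 and 6, at 398 and 410.4 in libraries 7 and 9, and at 450.0 in library 8. Their promoters are shown above, and the metal response core also stood in 8 other genes of the 12 in this list that have a promoter, *Slc30a1*, *Slc30a2*, *Slc30a10* and *Slc39a8*, which were lower, among them. Zinc exporters ran both ways. *Slc30a1*, the exporter of the basal membrane, was lower, at 64.9, 57.1 and 66 TMM CPM in number 2, 20.9 and 24.3 in libraries 7 and 9, and 20.6 in library 8. *Slc30a2*, which loads zinc into vesicles, was lower, at 377, 342 and 378 TMM CPM in number 2, 109 and 111 in libraries 7 and 9, and 141 in library 8, and *Slc30a4* was higher, at 51.8, 61.6 and 53.6 TMM CPM in number 2, 96.6 and 94.5 in libraries 7 and 9, and 104 in library 8. *Slc39a8*, a zinc and manganese importer, was lower, at 16, 13.3 and 15.6 TMM CPM in number 2, 4.33 and 4.6 in libraries 7 and 9, and 3.76 in library 8. *Slc39a4*, the main zinc importer of the luminal membrane, was lower only in libraries 7 and 9, at 335, 308 and 327 TMM CPM in number 2, 190.5 and 184 in libraries 7 and 9, and 340.3 in library 8. Over the 14 genes of manganese, zinc and copper transport, 3 were called higher and 4 lower, and with close libraries summed the counts were also 3 and 4.

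Cholesterol synthesis genes were lower in number 3 with both parts of it in step. Of 30 genes of synthesis and uptake, 15 were called lower and 4 higher, the median log2 difference was -0.60 in libraries 7 and 9 and -0.58 in library 8, and with close libraries summed 15 were called lower and 1 higher. *Hmgcs1*, which makes the precursor HMG-CoA, was at 172, 159 and 165 TMM CPM in libraries 4, 5 and 6, at 72.9 and 72.5 in libraries 7 and 9, and at 59.1 in library 8. *Fdft1*, squalene synthase, was at 76.6, 68.7 and 75.4 TMM CPM in number 2, 29.5 and 30.3 in libraries 7 and 9, and 29.9 in library 8, and *Idi1*, of the isoprenoid steps, at 86.4, 87.5 and 89.7 TMM CPM in number 2, 46 and 48.1 in libraries 7 and 9, and 45.5 in library 8. The sterol sensors *Insig1* and *Insig2* were lower too, *Insig1* at 218, 181 and 223 TMM CPM in number 2, 68.2 and 68 in libraries 7 and 9, and 55.2 in library 8, and *Insig2* at 84.7, 72.1 and 84.1 TMM CPM in number 2, 26.5 and 26.4 in libraries 7 and 9, and 28.2 in library 8. The 4 genes called higher included the sterol exporters *Abcg5*, at 116, 141 and 113 TMM CPM in number 2, 169 and 165 in libraries 7 and 9, and 244 in library 8, whose call was lost with close libraries summed, and *Abcg8*, at 102, 110.2 and 94.3 TMM CPM in number 2, 166 and 160.1 in libraries 7 and 9, and 221 in library 8. *Npc1l1*, the luminal cholesterol importer, overlapped between the numbers, at 385, 459.7 and 377 TMM CPM in number 2, 365 and 337 in libraries 7 and 9, and 557 in library 8.

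**Figure D4:**
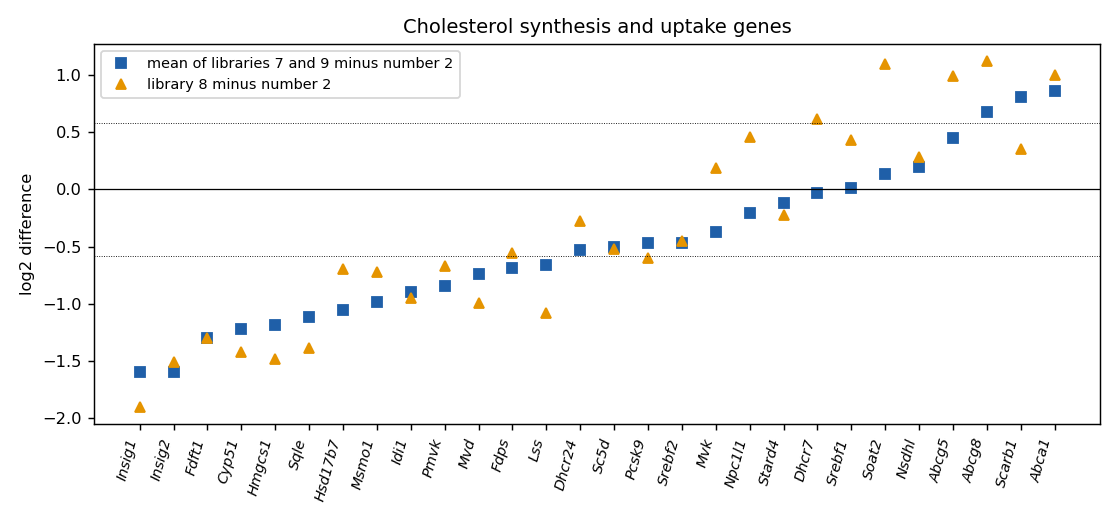
Log2 difference from number 2 for 28 of the 30 genes of cholesterol synthesis and uptake, for the mean of libraries 7 and 9 (squares) and for library 8 (triangles), with dotted lines at 0.58 on either side of 0. *Insig1* is at -1.60 and -1.90 and *Abcg8* at 0.68 and 1.12.

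Of the nutrient-handling genes, *Pck1*, which encodes the gluconeogenic enzyme PEPCK, differed most (chromosome 2 from 173153048 to 173159273, log2 fold change 3.44). It was at 17.2, 49.2 and 16.5 TMM CPM in libraries 4, 5 and 6, at 279 and 274 in libraries 7 and 9, and at 350.0 in library 8. *Sis*, sucrase-isomaltase of the brush border, was at 814, 1249 and 823 TMM CPM in libraries 4, 5 and 6, at 2551 and 2540.3 in libraries 7 and 9, and at 3326 in library 8. *Lct*, lactase, was higher only in library 8, at 880.0, 1261 and 835 TMM CPM in number 2, 806 and 744 in libraries 7 and 9, and 2019.6 in library 8. Of 15 disaccharidase and sugar transport genes, 5 were called higher, and 1 with close libraries summed. *Apoa4*, an apolipoprotein of chylomicrons, was lower, at 18675, 18788 and 19503 TMM CPM in number 2, 9370.4 and 9201 in libraries 7 and 9, and 11156 in library 8, and *Apob*, their scaffold, was called higher, at 1577, 2153 and 1521 TMM CPM in number 2, 2646 and 2516 in libraries 7 and 9, and 2701 in library 8. Both lost the call with close libraries summed.

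Peptidases of the luminal membrane were highest in library 8. For 14 brush border peptidases, library 8 was past 1.5-fold above number 2 in 9 and libraries 7 and 9 in 3, and the summed level was 7613, 10876 and 7474 TMM CPM in libraries 4, 5 and 6, 10011 and 9644 in libraries 7 and 9, and 16653 in library 8. The edgeR fit called 3 higher, and with close libraries summed 0, where 3 were higher at an unadjusted p under 0.05. For want of a share of all genes at that cutoff, the last count is not read as support. *Anpep*, aminopeptidase N, was at 1597, 3324 and 1631 TMM CPM in number 2, 2423 and 2328 in libraries 7 and 9, and 5062 in library 8. *Ace*, angiotensin-converting enzyme, was at 600.1, 949 and 573 TMM CPM in number 2, 769 and 755 in libraries 7 and 9, and 2049.7 in library 8, and *Mme*, neprilysin, which was called higher, at 506, 793 and 507 TMM CPM in number 2, 1065 and 1052 in libraries 7 and 9, and 1471 in library 8. For 15 peptide and amino acid transporters the corresponding counts were 10 and 2. The number 1 libraries, for comparison, held *Anpep* at 5051 to 5082 and *Ace* at 1975 to 2069 TMM CPM, which is where library 8 lay.

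Drug-metabolizing genes split by enzyme. *Cyp2b10*, which CAR induces, was lower, at 1171, 1075 and 1149.7 TMM CPM in libraries 4, 5 and 6, at 438 and 427 in libraries 7 and 9, and at 471 in library 8. *Cyp2d26* was higher, at 247, 300.4 and 250.3 TMM CPM in number 2, 388 and 374 in libraries 7 and 9, and 639 in library 8, as was *Ugt2b34*, a glucuronosyltransferase, at 893, 1027 and 912 TMM CPM in number 2, 1498 and 1456 in libraries 7 and 9, and 1669.7 in library 8. *Gstm3*, a glutathione transferase, was lower, at 1994, 1703 and 1969 TMM CPM in number 2, 748 and 726 in libraries 7 and 9, and 528 in library 8. Of 21 Cyp2 and Cyp4f genes, 8 were called higher and 3 lower, and of 26 conjugating enzymes 8 and 4. With close libraries summed these were 3 and 2, and 4 and 4, and *Cyp2d26* and *Ugt2b34* lost the call. *Cyp3a11*, a vitamin D-responsive enzyme, was lower without being called, at 4143, 4233 and 4300.1 TMM CPM in number 2, 3418 and 3446 in libraries 7 and 9, and 2669 in library 8. The efflux pump *Abcb1a* was higher, at 103, 155 and 99 TMM CPM in number 2, 353 and 354 in libraries 7 and 9, and 286 in library 8.

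Immunoglobulin variable genes separated libraries 7 and 9 from library 8 within number 3. Each B-cell clone transcribes its own choice of these gene segments, so their mix in tissue RNA reflects the plasma cells of the piece sampled. This group was chosen after its values were seen, and reads shared between near-identical segments make single members uncertain. Of 191 genes with enough reads, 42 were called higher and 18 lower, and with close libraries summed 13 and 7. Libraries 7 and 9 were past 1.5-fold above number 2 for 108 and below it for 36, library 8 for 53 and 81, and 49 ran in opposite directions. *Ighv14-4* was at 2.12, 2.07 and 1.6 TMM CPM in libraries 4, 5 and 6, at 35 and 39.5 in libraries 7 and 9, and at 0.0488 in library 8. *Igkv3-9* was at 0.225, 1.72 and 0.354 TMM CPM in libraries 4, 5 and 6, at 0.478 and 0.925 in libraries 7 and 9, and at 79.4 in library 8. *Igkv14-130*, of the largest fold change among the genes called higher that the naming rule took, was at 1.38, 3.56 and 1.2 TMM CPM in number 2, 48.6 and 52.9 in libraries 7 and 9, and 3.86 in library 8. *Ighv6-3* was at 6.19, 7.88 and 5.52 TMM CPM in number 2, 83.2 and 88.7 in libraries 7 and 9, and 5.76 in library 8, and *Igkv4-91*, in which library 5 also stood apart from libraries 4 and 6, at 500.4, 21 and 463 TMM CPM in number 2, 149 and 159.5 in libraries 7 and 9, and 5.17 in library 8. *Igkv12-89* and *Ighv5-9-1* were higher in all 3, *Igkv12-89* at 5.45, 5.53 and 4.6 TMM CPM in number 2, 29.6 and 30.4 in libraries 7 and 9, and 49 in library 8 and *Ighv5-9-1* at 2.92, 4.29 and 2.76 TMM CPM in number 2, 40.6 and 40.4 in libraries 7 and 9, and 14.7 in library 8. Like *Ighv6-3*, the segments *Igkv4-90* and *Ighv9-4* were high in libraries 7 and 9, between 25.7 and 47.5 TMM CPM, against 2.43 to 6.19 in number 2 and 2.34 and 2.39 in library 8. In 2 other segments library 5 was also above libraries 4 and 6, *Ighv3-8* at 0.866, 20.2 and 1.08 TMM CPM in number 2, 59.8 and 67 in libraries 7 and 9, and 1.66 in library 8, and *Ighv1-7* at 1.6, 7.43 and 1.84 TMM CPM in number 2, 26.6 and 30.5 in libraries 7 and 9, and 0.781 in library 8. The reverse held for *Igkv3-5*, *Igkv3-12* and *Igkv13-84*, between 25.6 and 123 in library 8, between 3.3 and 11.4 in libraries 7 and 9 and between 2.92 and 10 in number 2. *Ighv1-31* was at 18.4, 16.7 and 17.7 TMM CPM in number 2, 30.9 and 29.3 in libraries 7 and 9, and 0.927 in library 8, and *Igkv4-61* at 25.9, 5.98 and 25.9 TMM CPM in number 2, 11.4 and 12.7 in libraries 7 and 9, and 1.76 in library 8. With close libraries summed *Igkv14-130*, *Ighv14-4*, *Ighv6-3*, *Igkv4-90*, *Ighv9-4* and *Igkv3-12* lost the call.

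Pairs of libraries fell into sets by these genes. Between libraries 7 and 9, 5 of 191 genes were over 2-fold apart, and between libraries 4 and 6 it was 4. Library 8 differed from libraries 7 and 9 in 129 and 132 genes, and from libraries 1, 2 and 3 in 8, 13 and 7. Library 5 differed from libraries 4 and 6 in 73 and 76. Number 2 differed from libraries 7 and 9 in 98 to 116 genes and from library 8 in 106 to 113. The titles give libraries 1, 2, 3 and 8 as separate samples under 3 treatment labels, and how their variable gene levels came to be this close was not tested.

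**Figure D5:**
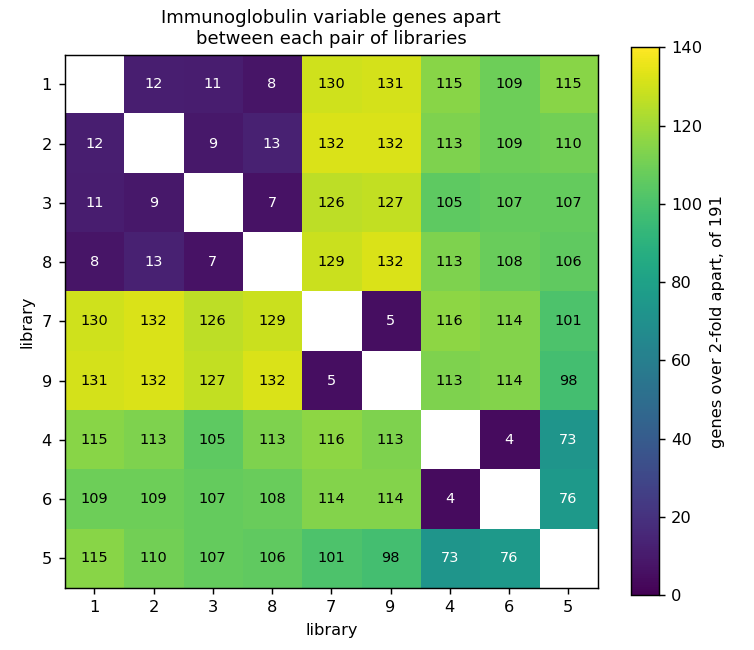
Number of the 191 immunoglobulin variable genes over 2-fold apart between each pair of the 9 libraries, with both axes ordered so that close libraries are neighbours. Libraries 1, 2, 3 and 8 form a block of 7 to 13 genes, libraries 7 and 9 differ in 5, libraries 4 and 6 in 4, and all other pairs in 73 to 132.

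Transcripts of the mitochondrial genome were higher in library 8 than in the other libraries of both numbers. All 13 were past 1.5-fold above number 2 there, none was in libraries 7 and 9, and the summed level was 28031, 31305 and 29978 TMM CPM in libraries 4, 5 and 6, 34653 and 36197 in libraries 7 and 9, and 83997 in library 8. The number 1 libraries held 94480.4, 84050.4 and 97552, at or above library 8. *mt-Co1*, cytochrome oxidase subunit I, was at 10904, 11696 and 11437 TMM CPM in libraries 4, 5 and 6, at 12979.9 and 13471 in libraries 7 and 9, and at 27759 in library 8. *mt-Nd4l* was at 12.2, 14.5 and 16.9 TMM CPM in number 2, 12.4 and 14.6 in libraries 7 and 9, and 57 in library 8. Respiratory chain genes of the nucleus were also higher in library 8, but by less. Of 18, 1 was past 1.5-fold above number 2 in library 8. Their median log2 difference from number 2 was 0.385 in library 8 and -0.173 in libraries 7 and 9. Erythroid genes ran in opposite directions, with all 5 tested below number 2 in libraries 7 and 9 and above it in library 8. *Hbb-bs*, adult beta globin, was at 32.6, 32.1 and 31.1 TMM CPM in libraries 4, 5 and 6, at 15.5 and 14.2 in libraries 7 and 9, and at 88 in library 8, and *Alas2*, of heme synthesis in red cells, at 1.06, 0.823 and 0.613 TMM CPM in number 2, 0.252 and 0.595 in libraries 7 and 9, and 4.54 in library 8. The erythroid sum was 47.8, 47.1 and 44.4 TMM CPM in libraries 4, 5 and 6, 21.4 and 21.8 in libraries 7 and 9, and 138 in library 8, and 146, 139 and 141 in the number 1 libraries. Library 8 had the smallest total count.

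Collagen and matrix genes were lower in library 8 and near number 2 in libraries 7 and 9. Of 20 tested, 13 were past 1.5-fold below number 2 in library 8 and 0 in libraries 7 and 9. The collagen and matrix sum was 406 TMM CPM in library 8 and 398 to 408 in the number 1 libraries. *Col3a1*, a fibrillar collagen, was at 67.4, 65.2 and 68.6 TMM CPM in number 2, 80.1 and 69.8 in libraries 7 and 9, and 38.2 in library 8, and *Col4a1*, of basement membranes, at 63.2, 51.2 and 59.4 TMM CPM in number 2, 48.5 and 47.6 in libraries 7 and 9, and 31.2 in library 8. Among genes with a mean of at least 10 TMM CPM, *Nkx6-3*, a transcription factor of the gastric antrum and duodenum, was the one most lowered in library 8 that libraries 7 and 9 kept. It was at 29.9, 15.7 and 30.7 TMM CPM in libraries 4, 5 and 6, at 21.2 and 23.3 in libraries 7 and 9, and at 0.0976 in library 8. *Ugt2b38*, a glucuronosyltransferase, was at 55.8, 43.1 and 55.1 TMM CPM in number 2, 62.1 and 61.8 in libraries 7 and 9, and 2.73 in library 8. *Slc5a4b*, of the sodium-glucose transporter family, was higher in library 8, at 6.32, 10.9 and 7.97 TMM CPM in number 2, 9.67 and 9.07 in libraries 7 and 9, and 53.1 in library 8. The number 1 libraries shared these levels with library 8. In libraries 1, 2, 3 and 8 *Nkx6-3* had 6, 7, 7 and 2 reads and *Ugt2b38* 77, 113, 61 and 56. *Slc5a4b* had 1271, 1596, 1257 and 1087 reads there.

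Of the genes past 1.5-fold below number 2 in libraries 7 and 9, 538 were within 1.5-fold of it in library 8 and 60 past it above, of which 530 and 53 were not immunoglobulin variable genes. The naming rule took 6 of them. *Il33*, an epithelial alarmin cytokine, was at 24.5, 27.6 and 24.8 TMM CPM in libraries 4, 5 and 6, at 10 and 8.41 in libraries 7 and 9, and at 27.7 in library 8. *Scand1* was at 26, 16.6 and 48.4 TMM CPM in number 2, 3.07 and 13 in libraries 7 and 9, and 38 in library 8, *H2afj*, a histone variant, at 39.7, 28.4 and 65.9 TMM CPM in number 2, 11.5 and 20.7 in libraries 7 and 9, and 40.3 in library 8 and *Tmem238* at 15.1, 10.6 and 24 TMM CPM in number 2, 4.56 and 7.2 in libraries 7 and 9, and 16.2 in library 8. *Gm23935* was at 136, 55.4 and 257 TMM CPM in number 2, 7.8 and 63.4 in libraries 7 and 9, and 285 in library 8, and *Gm26917* at 82.6, 51 and 93.8 TMM CPM in number 2, 22.2 and 35.5 in libraries 7 and 9, and 194 in library 8. Except in *Il33*, these levels also varied within number 2 and between libraries 7 and 9, so the difference was not beyond the spread of close libraries for *Gm23935*.

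Among other immune genes, *Igha*, the constant region of IgA, was higher in libraries 7 and 9 and lower in library 8, at 8557, 8339 and 8359 TMM CPM in libraries 4, 5 and 6, at 12704 and 12106 in libraries 7 and 9, and at 4575 in library 8. *Jchain*, which joins IgA dimers, was called higher, at 2736, 3173 and 2798 TMM CPM in number 2, 4229.8 and 4236 in libraries 7 and 9, and 4794 in library 8, but not with close libraries summed. *Pigr*, the epithelial receptor that exports IgA, was at 5876, 6905 and 5741 TMM CPM in number 2, 6637 and 6432 in libraries 7 and 9, and 5894 in library 8. Of 11 MHC class II genes 4 were called higher and 2 lower (4.53% and 6.81% of all genes), and 2 and 1 with close libraries summed. *Cd74*, the invariant chain, lost its call there and was at 1316, 1789 and 1318 TMM CPM in libraries 4, 5 and 6, at 2170.1 and 2115 in libraries 7 and 9, and at 2939 in library 8. Genes of T and intraepithelial lymphocytes were above number 2 in each number 3 library for 12 of 18 (18.0% of all genes), of which 2 were called, and 1 with close libraries summed. The share of all genes called higher was 4.53%. *Cd8a* was at 23.4, 21.7 and 21.2 TMM CPM in number 2, 29.3 and 29.1 in libraries 7 and 9, and 30 in library 8, and *Gzma*, a granule protease, at 149, 157 and 140.4 TMM CPM in number 2, 205 and 199.9 in libraries 7 and 9, and 230.4 in library 8. For both, library 8 lay just above libraries 7 and 9.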

How the data were processed

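RNA of mouse duodenum was sequenced in 9 libraries, of which 6 are compared. In the authors' processing, bcl2fastq 2.17.1.14 was used for base calls, dimers of adapters were taken out, and Tophat and Bowtie2 aligned single reads of a stranded mRNA kit to mm10. Uniquely aligned reads were counted per gene with HTSeq. The deposited values are whole-number read counts, not normalized. How strand was set in counting, and which annotation release was used, is not given in the sources used here. Therefore antisense, overlapping and near-identical genes (immunoglobulin segments, pancreatic proteases, globins) are uncertain.

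Columns were matched to samples by the digit in each sample's description, and libraries were grouped by the number in the title. Genes with more than 100 reads in total (15002, holding 99.924% of counts) were scaled by TMM and fitted with edgeR 4.0.16 in R 4.3.3, all 9 libraries and 1 mean per number, with Benjamini-Hochberg adjustment, and calls required a size of the log2 fold change above 0.58 at an adjusted p below 0.05. Differences of library 8, and of the mean of libraries 7 and 9, from number 2 are on the log2 scale of TMM CPM with a prior count of 0.5. The fit was tested on simulated data. Symbols and coordinates are from GENCODE M21 on GRCm38, with 48349 of 48709 identifiers matched, and promoters from RefSeq.

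The members, the 50 gene lists and the rule for named genes were chosen with earlier results of these data known. The rule took the 5 genes that mark the contrast, the VDR genes the study names, the 8 called genes of largest fold change in each direction, the 6 in each direction that set libraries 7 and 9 or library 8 apart from the other (all with a mean of at least 10 TMM CPM), and 2 to 4 members of highest mean per list with any defining marker. Genes named outside it were chosen after their values were seen. A few genes that the rule took are not reported here singly, and stand in the counts and sums of their lists. Alternatives were DESeq2 1.42.0 (size factors or test), limma 3.58.1 voom, other read minimums, no minimum fold, 2-fold, a prior count of 2, only the 6 libraries, the treatment label as a replicate block, close libraries summed, acinar genes left out, and each library left out.

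Depth was 22561400 to 41207455 counts. That the 3 libraries of a number are separate samples rests on their titles, and p-values measure the spread between these libraries only.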

Additional observations from a re-analysis of the deposited data

How the results depend on the processing

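The count of genes called stayed within 1.5 times of the reported one, in either direction, with DESeq2's size factors or test, limma voom, no minimum of reads, only the 6 libraries, the acinar genes left out, and the treatment label as a replicate block (663 higher and 1037 lower; the labels in doubt are not known to pair the libraries). With close libraries summed it was 245 and 507, where fewer samples enter, with no minimum fold 1679 and 1796, and with more than 1000 reads 653 lower, where fewer genes are tested. An alternative chosen after seeing the data, library 8 left out and close libraries summed, gave 705 and 1056. Leaving out 1 library at a time gave 469 to 971 higher and 816 to 1357 lower calls, the most without library 8. Genes whose libraries do not overlap then numbered 2982 to 4812 above and 3099 to 4838 below, again the most without library 8, since fewer libraries have to be separated. Genes past 1.5-fold, higher and lower, became 4710 and 5615 in libraries 7 and 9, 6559 and 5106 in library 8, 2875 and 2199 in both, and 1117 in opposite directions with no minimum of reads, 665 and 843 in libraries 7 and 9, 963 and 1256 in library 8, 318 and 491 in both, and 63 in opposite directions with more than 1000 reads, and 290 and 693 in libraries 7 and 9, 503 and 1199 in library 8, 121 and 508 in both, and 41 in opposite directions past 2-fold. A prior count of 2 kept each within 1.5 times. Of the log2 fold changes of named genes under the alternatives, 704 kept direction and call, 41 lost and 33 gained the call, and 21 changed sign. These were limma voom, *Gm26917* -0.44, *Ighv1-31* -0.42; the treatment label as a replicate block, *Gm26917* -0.33, *Ighv1-31* -0.21; close libraries summed, *Gm23935* 0.31, *Ighv1-31* -0.11; library 8 left out and close libraries summed, *Gm26917* -1.26, *Igkv3-9* -0.25, *Igkv3-5* -0.13, *mt-Nd4l* -0.12, *Ugt2b38* 0.33. Leaving out 1 library at a time, the values ranged for *Gm26917* -1.39 to 0.59, *Gm23935* -2.06 to 0.31, *Ighv1-31* -0.16 to 0.78, *Igkv3-9* -0.16 to 6.42, *Igkv3-5* -0.10 to 4.12, *mt-Nd4l* -0.12 to 1.27, *Ugt2b38* -0.63 to 0.27. The cause was not tested. At this depth, genes under about 1 TMM CPM rest on few reads per library.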

Other observations

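Secretory and hormone cells were described by the same counts. Over all genes 4.53% were called higher and 6.81% lower, and 1.63% and 3.38% with close libraries summed. Paneth cell genes, which encode antimicrobial peptides of the crypt base, were called higher in 3 and lower in 2 of 13, and with close libraries summed 2 were called higher, *Lyz1* no longer among them, and 0 lower by edgeR, with 2 lower at an unadjusted p under 0.05. The unadjusted count has no share of all genes beside it and is not read as support. *Lyz1*, lysozyme, was at 1730.4, 1268 and 1647 TMM CPM in libraries 4, 5 and 6, at 3030.2 and 2945 in libraries 7 and 9, and at 1746 in library 8, and *Ang4*, an antimicrobial ribonuclease, at 101, 64.3 and 96.8 TMM CPM in number 2, 192 and 192 in libraries 7 and 9, and 204 in library 8. Of 15 goblet cell genes, 5 were called lower (3 with close libraries summed), among them *Agr2*, which folds mucins, at 448, 394 and 462 TMM CPM in number 2, 214 and 214 in libraries 7 and 9, and 261 in library 8. The main mucus-associated transcript *Fcgbp* overlapped, at 2574, 3131 and 2445 TMM CPM in number 2, 2734 and 2554 in libraries 7 and 9, and 3296 in library 8. Of 18 enteroendocrine genes 1 was called higher and 2 lower, and with close libraries summed 1 lower, not far from the shares of all genes. *Gip*, an incretin hormone, was lower in each number 3 library without passing the fold, at 104, 103 and 108 TMM CPM in number 2, 81.5 and 79.7 in libraries 7 and 9, and 93 in library 8, and *Cck*, cholecystokinin, was higher in library 8 only, at 36.4, 28.8 and 45.8 TMM CPM in number 2, 18.7 and 31 in libraries 7 and 9, and 61.2 in library 8.

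Of the immediate early genes, which are transcribed fast and briefly after a stimulus, 6 of 17 were called lower, and 1 with close libraries summed, where *Junb* lost its call. The shares of all genes called lower in these fits were 6.81% and 3.38%. *Fos* was at 154, 156 and 159 TMM CPM in number 2, 115 and 115 in libraries 7 and 9, and 88.2 in library 8, and *Junb* at 94.7, 82.7 and 104 TMM CPM in number 2, 26.6 and 42.3 in libraries 7 and 9, and 55.3 in library 8. Interferon-stimulated genes were called lower in 3 and higher in 1 of 33, where the shares of all genes were 6.81% and 4.53%. With close libraries summed 2 were called lower and 0 higher. Library 8 was past 1.5-fold below number 2 for 13 of the 33, and libraries 7 and 9 for 3, against 16.7% and 10.2% of all genes. *Ifit1* was low in library 8 only, at 46.4, 68.7 and 47.5 TMM CPM in number 2, 60 and 60.2 in libraries 7 and 9, and 25.7 in library 8. *Hnf4g*, an enterocyte transcription factor, was higher in all of number 3, at 113, 138 and 102 TMM CPM in number 2, 229.6 and 216 in libraries 7 and 9, and 218 in library 8. *Aldh1a1*, which makes retinoic acid, was at 171, 211 and 166 TMM CPM in number 2, 488 and 475 in libraries 7 and 9, and 549 in library 8. *Ireb2*, which controls iron transcripts, was called lower, at 312, 304 and 306 TMM CPM in number 2, 212 and 206 in libraries 7 and 9, and 111 in library 8, but not with close libraries summed.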
